A study of Caenorhabditis elegans with 6 samples.

Results

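The PAR polarity network of Caenorhabditis elegans is described here through 10 genes: par-1, par-2, par-3, par-4, par-5, par-6, pkc-3, cdc-42, lgl-1 and nmy-2. They were taken by gene name from the deposited table, in which all 10 carry read counts, among 22389 genes with counts. Of these 10, 9 had enough reads to be tested among 13778 tested genes, and par-4 did not. Polyadenylated RNA of whole adult worms grown on solid medium was sequenced in 3 libraries of the linc-4 genotype, a CRISPR deletion of the long intergenic non-coding RNA gene linc-4, and in 3 libraries of N2, the laboratory wild type. Both genotypes share the N2 background. Neither the extent of the deletion, nor the number of independent mutant lines, nor the day of adulthood is given in the sources used here.

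The PAR proteins divide the cortex of the C. elegans zygote into an anterior and a posterior domain that exclude each other. PAR-3, PAR-6, the atypical protein kinase PKC-3 and the GTPase CDC-42 occupy the anterior cortex, PAR-1, PAR-2 and LGL-1 the posterior cortex, and a flow of actomyosin driven by the non-muscle myosin NMY-2 sets up the boundary. The transcripts are made in the germline and loaded into oocytes, while epithelial and other somatic cells use several of the same proteins for apical polarity and cell division, so whole-worm RNA holds both sources.

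Total counts ran from 6560089 to 12790323 in the linc-4 libraries and from 3736372 to 7428665 in the wild type libraries. The deleted gene checks the labels: linc-4 had 5, 1 and 1 reads in linc-4 libraries 1 to 3, against 193, 345 and 234 reads in wild type libraries 1 to 3. Levels are given as CPM, read counts relative to the scaled library total, and changes as the log2 fold change of linc-4 over wild type fitted by limma-voom, with p-values adjusted by Benjamini-Hochberg over all tested genes and 0.05 as the threshold. Over all tested genes, calls at this threshold numbered 1591 higher and 989 lower. Upper-quartile scaling moved the median over all tested genes up by 0.111 (log2) and gave 2065 higher and 476 lower. Whether the 3 libraries of a genotype are separate cultures is not stated, so the p-values may measure technical spread.

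Where polarity transcripts were called, they were lower. Of the 9 tested genes, par-6, par-2 and nmy-2 fell, by 1.67-fold, 1.55-fold and 1.35-fold, and 0 rose. Lower calls make up 7.18% of all tested genes and higher calls 11.5%, and a count of 0 in 9 is not far from 11.5%. No member was higher at an unadjusted limma-voom p under 0.05, against 18.7% of all tested genes. None was called higher by limma-trend or in the authors' deposited table. Lower calls numbered 2 by limma-trend and 2 in the authors' deposited table, where they make up 4.91% of the genes with an adjusted p. By limma-voom 5 members were lower at an unadjusted p under 0.05, a property of 15.8% of all tested genes. The same 5 genes, par-6, par-2, nmy-2, cdc-42 and lgl-1, had every linc-4 library below every wild type library, as did 17.7% of all tested genes, and 0 members had every linc-4 library above, as did 21.2% of all tested genes. The log2 fold changes of the 9 genes had a median of -0.43, against -0.0149 over all tested genes, and lay below 0 for all 9, against 51.2% of all tested genes below 0 and 48.8% above. With upper-quartile scaling par-3 was at 0.03 and the other 8 stayed below 0, and all 3 calls were lost, with limma-voom adjusted p-values of 0.051 for par-6, 0.064 for par-2 and 0.13 for nmy-2.

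**Figure D1:**
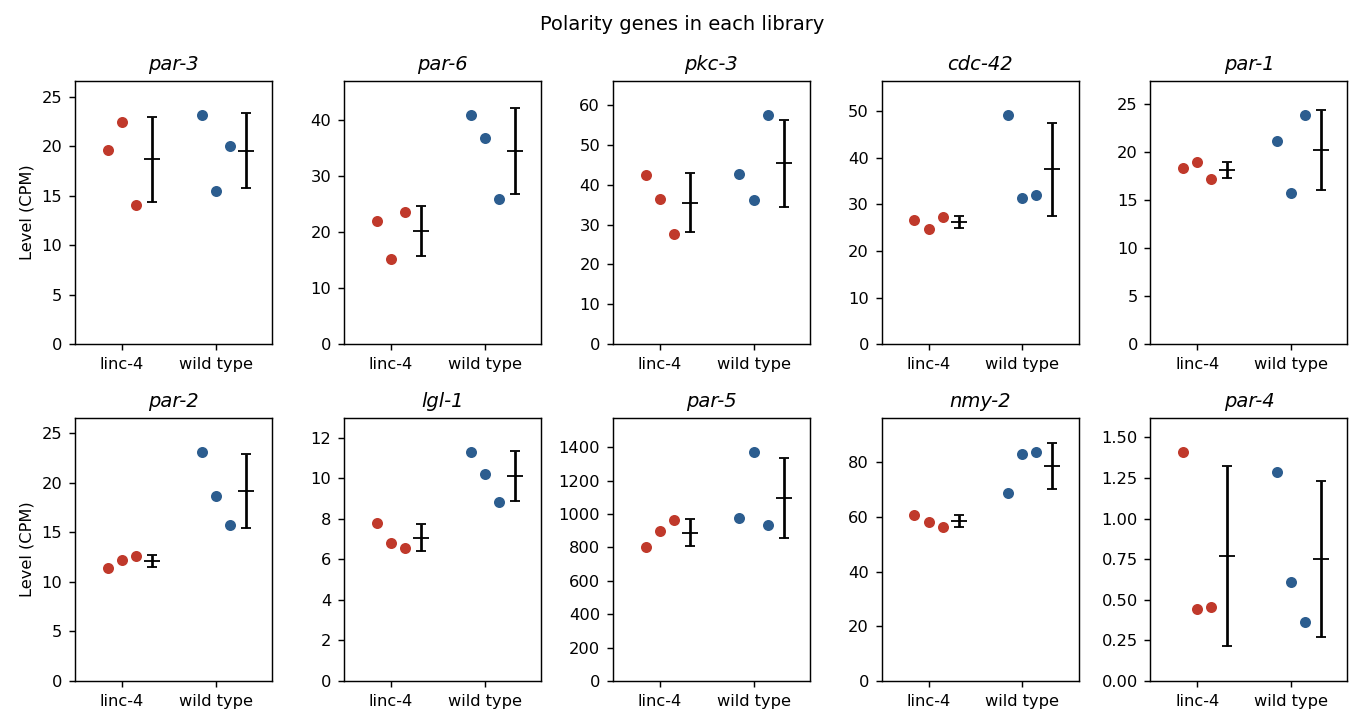
Level (CPM, linear axis from 0) of the 10 polarity genes in each of 3 linc-4 libraries (red, left) and 3 wild type libraries (blue, right); points run from library 1 to 3 and the black bar is the mean with its SD. For par-6, cdc-42, par-2, lgl-1 and nmy-2 all linc-4 points lie below all wild type points, while the groups overlap for the other 5 genes.

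Among the anterior genes, par-6 changed most. par-6 encodes a PDZ-domain scaffold that binds CDC-42 and PKC-3 and lies on chromosome I from 12669380 to 12674447 on the + strand (WBGene00003921; positions are those of the deposited table, build WBcel235). Its level was 22.02, 15.2 and 23.6 CPM in linc-4 libraries 1 to 3 and 40.9, 36.8 and 25.98 CPM in wild type libraries 1 to 3. All 3 linc-4 values were below the lowest wild type value, and linc-4 2 and wild type 3 were each the low library of their group. par-6 averaged 20.3 ± 4.49 CPM in linc-4 and 34.6 ± 7.71 CPM in wild type (SD, n = 3 each), with a log2 fold change of -0.74 (SE 0.21, limma-voom adjusted p = 0.028). The call was lost without linc-4 2 (limma-voom adjusted p = 0.13), without wild type 1 (adjusted p = 0.11) and without wild type 2 (adjusted p = 0.053). In the authors' deposited table par-6 had a log2 fold change of -0.78 and an adjusted p of 0.014.

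The partners of PAR-6 gave smaller differences that did not pass. cdc-42, the small GTPase that activates the anterior complex, lies on chromosome II from 7616452 to 7618245 and had 26.6, 24.8 and 27.3 CPM in linc-4, against 49.1, 31.4 and 32.1 CPM in wild type. The groups did not overlap, and wild type 1 stood well above the other wild type libraries. The log2 fold change was -0.46 (SE 0.18, limma-voom adjusted p = 0.092), and it passed only when wild type 2 was left out (adjusted p = 0.046), with -0.27 without wild type 1.

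pkc-3, the atypical protein kinase C that phosphorylates posterior proteins, lies on chromosome II from 5380027 to 5384169. It had 42.5, 36.5 and 27.6 CPM in linc-4 and 42.7, 36.1 and 57.4 CPM in wild type, so that the groups overlapped. Its log2 fold change of -0.36 (95% interval -0.80 to 0.08, limma-voom adjusted p = 0.23) leaves room for anything between 0.576 and 1.06 times the wild type level. par-3, the PDZ scaffold that clusters at the anterior cortex and marks apical domains in epithelia, lies on chromosome III from 5664234 to 5676732. Its levels were 19.6, 22.4 and 14.01 CPM in linc-4 and 23.1, 15.5 and 20.03 CPM in wild type, 2 sets that interleave. The log2 fold change was -0.08 (95% interval -0.55 to 0.38, limma-voom adjusted p = 0.81), or 0.685 to 1.30 times wild type, and its sign turned without linc-4 3 (0.14) and without wild type 1 (0.04). par-3 shares 184 bp of exon with F54E7.9 on the opposite strand, and since the strandedness of the counting is not given, reads of overlapping genes cannot be told apart. The same limit holds, over fewer bases, for par-1 (75 and 14 bp), pkc-3 (33 bp) and cdc-42 (8 bp).

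Of the posterior genes, par-2 fell. par-2 encodes a RING-finger protein that holds the posterior cortex and recruits PAR-1, and it lies on chromosome III from 1081402 to 1095073 on the + strand (WBGene00003917). It had 11.4, 12.2 and 12.6 CPM in linc-4 and 23.1, 18.7 and 15.7 CPM in wild type. The linc-4 libraries agree closely and all lie below the wild type ones, which are spread more widely. The means were 12.1 ± 0.629 CPM in linc-4 and 19.2 ± 3.75 CPM in wild type (SD, n = 3 each), with a log2 fold change of -0.63 (SE 0.18, limma-voom adjusted p = 0.032). The call was lost without linc-4 1 (limma-voom adjusted p = 0.088), without linc-4 2 (0.097), without linc-4 3 (0.054) and without wild type 1 (0.11). The authors' deposited table gave par-2 a log2 fold change of -0.67 with an adjusted p of 0.039.

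The kinase and the tumour suppressor homologue of the posterior cortex were not called. lgl-1, the homologue of Drosophila lethal giant larvae and partly redundant with par-2, lies on chromosome X from 864925 to 871089. Its levels were 7.81, 6.83 and 6.55 CPM in linc-4 and 11.3, 10.2 and 8.84 CPM in wild type, without overlap. With between 44 and 86 reads in a library, counting error alone accounts for a coefficient of variation of 12.9% in linc-4 and 13.9% in wild type, and the log2 fold change of -0.52 (SE 0.20) had an adjusted p of 0.086 by limma-voom.

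par-1, the serine/threonine kinase that acts from the posterior cortex on cytoplasmic determinants, is the longest of the set, on chromosome V from 14112039 to 14145411 with 18 annotated transcripts that the gene counts do not separate. It had 18.3, 18.9 and 17.2 CPM in linc-4 and 21.1, 15.7 and 23.8 CPM in wild type. The 3 linc-4 values fall inside the wild type range. The log2 fold change was -0.13 (95% interval -0.53 to 0.27, limma-voom adjusted p = 0.65), that is 0.693 to 1.20 times wild type, and 0.01 without wild type 3. Unequal change within the posterior group was not beyond the spread of libraries: the log2 ratio of par-1 over par-2 was 0.68, 0.63 and 0.45 in linc-4 and -0.13, -0.26 and 0.60 in wild type, and wild type 3 lies inside the linc-4 range.

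nmy-2, the heavy chain of the non-muscle myosin II that contracts the cortex, fell slightly. It lies on chromosome I from 7926623 to 7934577 on the - strand (WBGene00003777) and had 60.8, 58.1 and 56.3 CPM in linc-4, against 68.9, 83.1 and 83.7 CPM in wild type. The groups did not overlap, and wild type 1 was the wild type library nearest to the linc-4 ones. The means were 58.4 ± 2.29 CPM in linc-4 and 78.6 ± 8.37 CPM in wild type (SD, n = 3 each), with a log2 fold change of -0.43 (SE 0.14, limma-voom adjusted p = 0.049). This call sat at the threshold. Each omission of a single library lost it: the limma-voom adjusted p was 0.090 without linc-4 1, 0.14 without linc-4 2, 0.12 without linc-4 3, 0.056, 0.085 and 0.13 with wild type 1, 2 or 3 left out. It was also missed by limma-trend (adjusted p = 0.052) and in the authors' deposited table (adjusted p = 0.058).

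The other non-muscle myosin heavy chain, nmy-1, which acts in the epidermis and the spermatheca, did not pass. It had 77.3, 81.3 and 47.4 CPM in linc-4 and 58.4, 41.1 and 59.4 CPM in wild type, with a log2 fold change of 0.35 (SE 0.22, limma-voom adjusted p = 0.26), and it passed as higher when linc-4 3 was left out (adjusted p = 0.042). The log2 ratio of nmy-2 over nmy-1 was -0.35, -0.48 and 0.25 in linc-4 and 0.24, 1.02 and 0.50 in wild type. Only linc-4 3 of the mutant libraries reached the wild type range, at its lower edge.

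par-5 and par-4 act on both domains. par-5 encodes a 14-3-3 protein that binds phosphorylated polarity proteins and lies on chromosome IV from 11820505 to 11821917. Its levels were 803, 898 and 965 CPM in linc-4 and 979, 1372 and 937 CPM in wild type. linc-4 3 lies inside the wild type range and wild type 2 is far above the rest. The log2 fold change was -0.28 (95% interval -0.65 to 0.08, limma-voom adjusted p = 0.25), and -0.11 without wild type 2. With between 3807 and 12679 reads in a library, counting error gives par-5 a coefficient of variation of only 1.16% in linc-4 and 1.37% in wild type, while that between libraries was 9.20% in linc-4 and 21.9% in wild type.

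ftt-2, the other 14-3-3 gene, encodes a protein very similar to PAR-5, and how reads shared between such genes were counted is not given. It had 179.5, 185 and 193 CPM in linc-4 and 206, 273 and 235 CPM in wild type. These groups did not overlap, and the log2 fold change was -0.35 (SE 0.14, limma-voom adjusted p = 0.10).

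par-4, the homologue of the LKB1 kinase, was at the edge of detection and was not tested. It lies on chromosome V from 18098676 to 18106868 and had 11, 3 and 6 reads in linc-4 libraries and 5, 4 and 2 reads in wild type libraries. Summed and scaled for depth, 20 reads in linc-4 against 11 in wild type give a ratio of 1.05 with an exact 95% binomial interval of 0.48 to 2.43, which covers counting error only. The coefficient of variation of par-4 between libraries was 71.7% in linc-4 and 63.7% in wild type, above the 44.4% and 56.3% of counting error. Changes of the size of that interval, or larger, may have been missed, and no detection limit was computed.

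**Figure D2:**
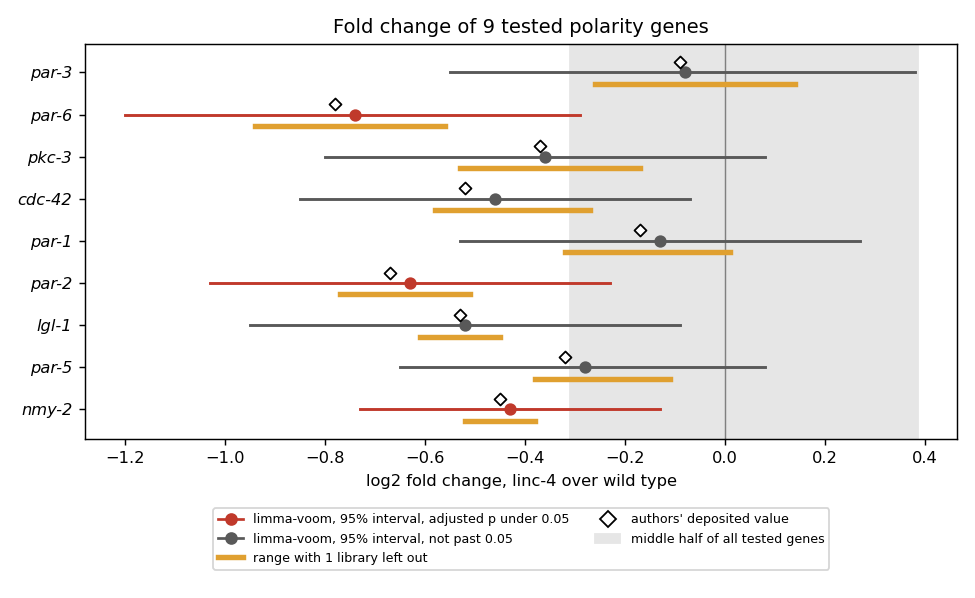
log2 fold change of linc-4 over wild type for the 9 tested polarity genes, with 95% intervals by limma-voom (red past adjusted p 0.05, grey not), the range with 1 library left out (orange) and the authors' deposited values (diamonds); the grey band spans the quartiles of all tested genes. par-6 and par-2 lie farthest from 0, at -0.74 and -0.63, and the ranges of par-1 and par-3 cross 0.

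Per length of exon, the genes spanned a wide range of levels, and their order was nearly the same in both genotypes. par-5 stood far above the rest at 706 ± 64.9 CPM per kb in linc-4 and 870.4 ± 191 CPM per kb in wild type (SD, n = 3 each), higher than 98.0% of tested genes in linc-4 and 98.4% in wild type. cdc-42 followed with 19.5 ± 0.969 in linc-4 and 27.9 ± 7.46 in wild type, then par-6 with 14.3 ± 3.18 in linc-4 and 24.4 ± 5.45 in wild type, and pkc-3 with 15.3 ± 3.21 in linc-4 and 19.5 ± 4.67 in wild type, all in CPM per kb. These anterior partners therefore had transcript levels of like size, and libraries of par-6 and pkc-3 overlapped in each genotype. The 2 genes change places between genotypes, pkc-3 having the higher mean in linc-4 and par-6 in wild type, within that overlap.

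nmy-2 came next, at 8.99 ± 0.353 CPM per kb in linc-4 and 12.1 ± 1.29 in wild type, followed by par-2 at 4.57 ± 0.238 in linc-4 and 7.27 ± 1.42 in wild type. par-3 had 3.49 ± 0.80 CPM per kb in linc-4 and 3.66 ± 0.715 in wild type, and par-1 had 2.71 ± 0.126 in linc-4 and 3.02 ± 0.618 in wild type. Libraries of par-3 and par-1 overlapped in both genotypes, so their order is not set. lgl-1, at 1.81 ± 0.17 CPM per kb in linc-4 and 2.60 ± 0.318 in wild type, and par-4, at 0.415 ± 0.298 in linc-4 and 0.406 ± 0.258 in wild type, were the lowest, and each lay without overlap above or below its neighbours except for lgl-1 and par-1 in wild type.

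**Figure D3:**
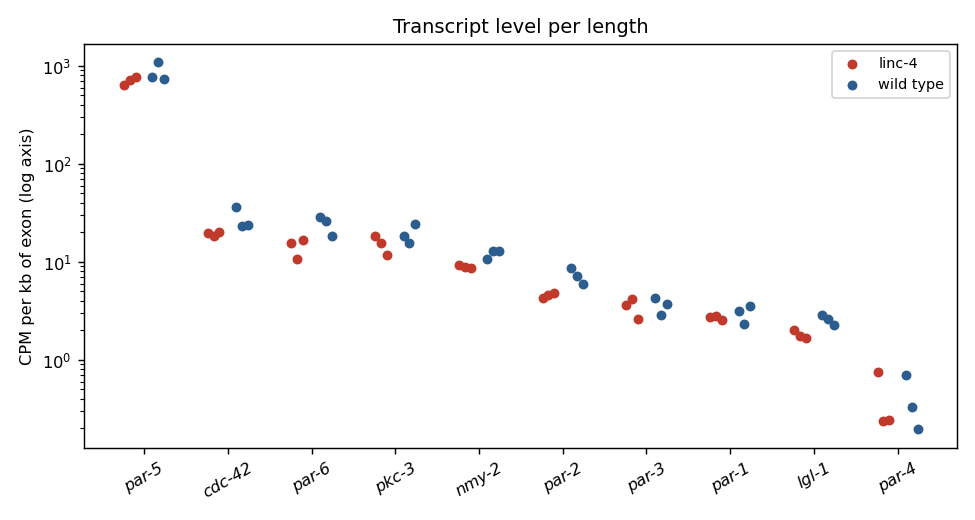
Level per length (CPM per kb of exon, log axis) of the 10 polarity genes in each linc-4 (red) and wild type (blue) library, ordered by the wild type mean. par-5 lies at 638 to 767 in linc-4 and 744 to 1089.7 in wild type, far above cdc-42, and par-4 lies below 0.8 in every library.

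The balance of transcript levels between posterior and anterior genes did not differ beyond the spread of libraries. Taking the summed CPM per kb of par-1, par-2 and lgl-1 over that of par-3, par-6, pkc-3 and cdc-42, the log2 ratio was -2.66, -2.42 and -2.51 in linc-4 and -2.57, -2.49 and -2.58 in wild type. All wild type values fall inside the linc-4 range, and the means differed by 0.02. The ratio of par-2 over par-6, the genes with the largest differences in each domain, was likewise intermixed, at -0.95, -0.31 and -0.90 in linc-4 and -0.82, -0.98 and -0.73 in wild type on the log2 scale. The log2 ratio of par-6 over its binding partner par-3 was 0.17, -0.57 and 0.75 in linc-4 and 0.82, 1.25 and 0.38 in wild type, which overlap. In the anterior sum cdc-42, par-6 and pkc-3 (27.9, 24.4 and 19.5 CPM per kb in wild type) weigh far more than par-3 (3.66). These ratios are of whole-worm RNA, not of protein at the cortex, and are descriptions with no test.

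Most markers of oocytes, the germline and embryos moved in the same direction. Of 12 oocyte markers (among them oma-1, rme-2 and lin-41) 10 fell and 0 rose, against 7.18% lower calls over all tested genes, and their summed level was 1233 to 1323 CPM in linc-4 and 1864 to 2236 CPM in wild type. Of 14 germline markers 6 fell (among them pgl-3, glh-1 and gld-1) and 8 were not called, read against the same 7.18%. Their sums were 788 to 866 CPM in linc-4 and 1174 to 1188 CPM in wild type. The germline marker syp-1 went the other way, at 0.26 on the log2 scale, with every linc-4 library above every wild type library, and was not called. Of 12 embryo markers 7 were tested and 4 fell, again read against 7.18%, with sums of 23.9 to 27.4 CPM in linc-4 and 46.4 to 55.8 CPM in wild type. Among the untested ones, end-3, med-1 and tbx-37 had higher means in linc-4 and end-1 and tbx-38 lower ones, all at few reads. No marker of these lists was at 0 in all libraries. In whole worms, fewer germ cells or embryos and less RNA per cell cannot be told apart, and the part of these markers in the results of the polarity genes was not tested.

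Markers of other tissues had no lower call. Sperm markers summed to 816 to 1007 CPM in linc-4 and 476 to 691 CPM in wild type, with 6 of 14 called higher, against 11.5% higher calls over all tested genes. Body wall muscle markers summed to 4625 to 5439 CPM in linc-4 and 3618 to 4237 CPM in wild type, without overlap, while their calls, 1 of 10 higher, were near that 11.5%. The summed levels of intestine, epidermis, neuron and somatic gonad markers overlapped between genotypes. Higher calls numbered 1 of 10 for intestine, 2 of 10 for epidermis, 0 of 10 for neuron (also 0 at an unadjusted p under 0.05 and by limma-trend) and 1 of 7 tested for somatic gonad, to be read against the same 11.5%.

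Set against the summed oocyte markers of the same library, linc-4 and wild type libraries overlapped for 7 of the 9 tested polarity genes. That sum was itself lower in linc-4, without overlap, at a log2 ratio of means of -0.7. Any gene that fell by less than the sum therefore has a higher ratio in linc-4. The share of all tested genes that overlap in this ratio was not computed. Whether the count is particular to the polarity genes was therefore not tested. Each ratio also carries the spread of the marker sum between libraries, 1864 to 2236 CPM in wild type and 1233 to 1323 CPM in linc-4. The log2 ratio of par-6 was -5.91, -6.41 and -5.71 in linc-4 and -5.51, -5.86 and -6.43 in wild type. That of par-2 was -6.86, -6.72 and -6.61 in linc-4 and -6.33, -6.84 and -7.15 in wild type. Both sets overlap, and the means of linc-4 and wild type differ by -0.07 for par-6 and 0.05 for par-2. nmy-2, with a log2 fold change of -0.43, stood at -4.44, -4.47 and -4.45 in linc-4 and at -4.76, -4.69 and -4.74 in wild type. Its ratio to the oocyte markers was higher in every linc-4 library, by 0.27, because its level fell by less than the marker sum. par-1, with a log2 fold change of -0.13, likewise had a higher ratio in every linc-4 library, by 0.56. Its ratios were -6.17, -6.09 and -6.16 in linc-4 and -6.47, -7.10 and -6.55 in wild type. Of the others, par-3 differed most, by 0.62, with overlap. The sum of the 14 germline markers was also lower in linc-4, at a log2 ratio of means of -0.53. Against it par-1 was higher in every linc-4 library as well, by 0.40, whereas nmy-2 overlapped.

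**Figure D4:**
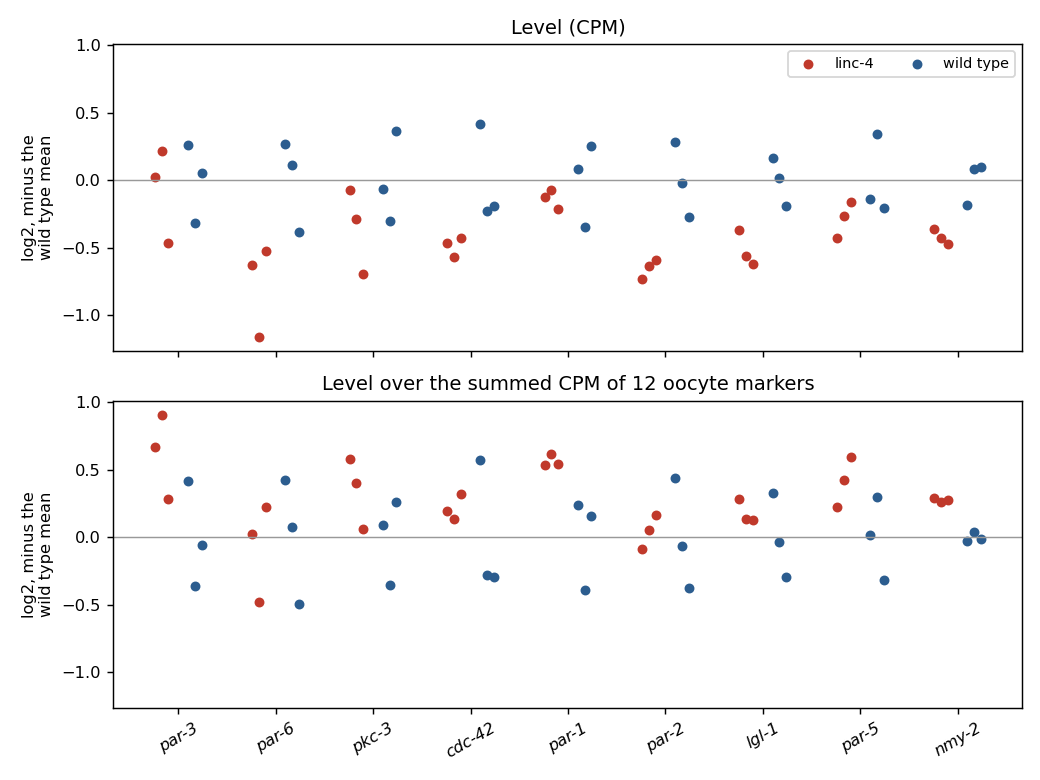
log2 level of the 9 tested polarity genes in each linc-4 (red) and wild type (blue) library, each gene set to 0 at its wild type mean, as CPM (upper panel) and over the summed CPM of 12 oocyte markers of the same library (lower panel). The separation of par-6, par-2, cdc-42 and lgl-1 seen in the upper panel is not seen in the lower one, where nmy-2 and par-1 lie higher in all linc-4 libraries. The marker sum was itself lower in linc-4 (log2 ratio of means -0.7), which raises the ratio of any gene that fell by less. The ratio also carries the spread of that sum between libraries, and whether the changes of these genes and of the markers are linked was not tested.

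Genes that work with the PAR network numbered 80 in 7 lists by role, of which 78 were tested. By limma-voom 22 fell and 0 rose, against 7.18% lower and 11.5% higher calls over all tested genes. At an unadjusted limma-voom p under 0.05, 1 of them, vab-9, was higher and 32 were lower. Over all tested genes these shares were 18.7% higher and 15.8% lower. Limma-trend and the authors' deposited table called 0 higher and 22 and 20 lower. The median log2 fold change was -0.31, or -0.20 with upper-quartile scaling. Lower calls over all 13778 tested genes, 989 in the main fit, are given in brackets for the other fits. Upper-quartile scaling left 13 lower calls (476). Without linc-4 1, 2 or 3 there were 14 (538), 8 (194) and 17 (705), the last with 1 higher call. Without wild type 1, 2 or 3 there were 13 (447), 24 (1173) and 12 (549). Of the 22 genes, act-2, pfn-1, ani-2, plst-1, mex-5, mex-6, let-99 and ric-8 passed in each of the 6 fits with 1 library left out. The other 14 did not, with largest limma-voom adjusted p-values from 0.053 to 0.16, reached without linc-4 2 in 11 of them.

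Of 20 genes of the actomyosin cortex 6 fell and 0 rose, with a median of -0.29, against 7.18% lower calls over all tested genes. Below 0 were 17 of the 20, against 51.2% of all tested genes. The profilin gene pfn-1, needed for actin assembly by formins, fell 2.06-fold, to 188 ± 8.68 CPM in linc-4 against 386 ± 15.2 CPM in wild type (SD, n = 3 each; limma-voom adjusted p = 0.00023), and ani-2, an anillin of the germline's intercellular bridges, fell 2.06-fold as well. act-2 fell 1.92-fold, to 419 ± 12.4 CPM in linc-4 against 813 ± 150.2 CPM in wild type, while act-1, act-3 and act-4 had log2 fold changes of -0.18, -0.23 and 0.06. The 4 actin genes are nearly identical in sequence, so their single values are uncertain. The plastin gene plst-1, the septin gene unc-59 and the WASP gene wsp-1 fell 1.74-fold, 1.55-fold and 1.40-fold. The regulatory light chain gene mlc-4 stood at 0.32 on the log2 scale and was not called (limma-voom adjusted p = 0.15).

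Centrosomes trigger the break of symmetry in the zygote. Of 6 centrosome genes 2 fell and 0 rose, against 7.18% lower calls over all tested genes. All 6 were below 0, against 51.2% of all tested genes. The Polo kinase plk-1 fell 1.71-fold and the scaffold gene spd-5 fell 1.44-fold, while the Aurora A kinase air-1, at -0.36 on the log2 scale, was not called. spd-5 shares 39 bp of exon with hcp-6 on the opposite strand. Called genes of other lists have shorter overlaps of this kind: wsp-1 (22 bp), zif-1 (19 bp), mex-1 (18 bp) and spn-4 (8 bp).

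Among 9 outputs of polarity in the cytoplasm 6 fell and 0 rose, against 7.18% lower calls over all tested genes. All 9 were below 0, against 51.2% of all tested genes, and the median log2 fold change was -0.53. The related zinc-finger proteins MEX-5 and MEX-6 form a gradient set by PAR-1. mex-6 fell to 82.8 ± 5.46 CPM in linc-4, against 146 ± 19.3 CPM in wild type (SD, n = 3 each), and mex-5 fell by 1.01 on the log2 scale (SE 0.16, limma-voom adjusted p = 0.0013). pos-1, zif-1, spn-4 and mex-1 fell 1.51-fold, 1.45-fold, 1.44-fold and 1.43-fold. mex-3 and pie-1, with log2 fold changes of -0.15 and -0.35, did not pass.

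Of 12 spindle positioning genes, which move the spindle towards the posterior under PAR control, 6 fell and 0 rose. Lower calls make up 7.18% of all tested genes. All 12 were below 0, against 51.2% of all tested genes, with a median of -0.58. ric-8, an exchange factor of G-alpha proteins, fell 1.91-fold, to 16.3 ± 4.01 CPM in linc-4 against 30.7 ± 4.81 CPM in wild type (SD, n = 3 each; limma-voom adjusted p = 0.0081), and let-99, a DEP-domain protein of the lateral cortex, fell 1.64-fold. lis-1, the dynein heavy chain gene dhc-1, gpr-1 and goa-1 fell 1.54-fold, 1.51-fold, 1.5-fold and 1.48-fold. gpr-1 has a near copy, gpr-2, at -0.40, so the split of their reads is uncertain.

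Of 15 epithelial junction and polarity genes 2 fell and 0 rose, with a median of -0.23 (log2), against 7.18% lower calls over all tested genes. Below 0 were 12 of the 15, against 51.2% of all tested genes. The beta-catenin gene hmp-2 fell 1.48-fold and the apical membrane linker erm-1 fell 1.47-fold, while the junction genes dlg-1, ajm-1 and let-413 had log2 fold changes of 0.18, -0.03 and -0.02. Of 10 tested paralogues of the members 0 were called by limma-voom, and limma-trend and the authors' deposited table called 0. By limma-voom 1, ftt-2, was lower at an unadjusted p under 0.05, against 15.8% of all tested genes. Below 0 were 5 of these 10 paralogues, and 5 of the 6 genes of the PAR-4 complex and its targets. Of 6 genes of the PAR-4 complex and its targets 0 were called by limma-voom, limma-trend or in the authors' deposited table and 2 were lower at an unadjusted p under 0.05, where the share over all tested genes is 15.8%; the smallest p was that of the MO25 homologue mop-25.3, at -0.57 (SE 0.24, limma-voom adjusted p = 0.12).

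**Figure D5:**
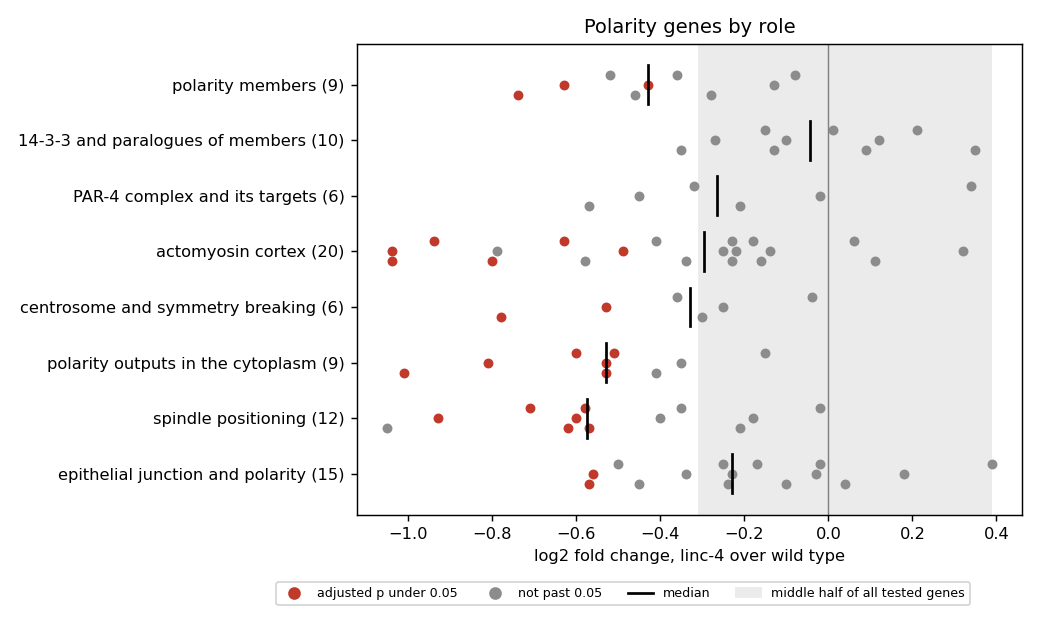
log2 fold change of linc-4 over wild type for the 9 tested polarity members and for 78 tested genes of 7 lists by role (number tested in brackets); red points passed adjusted p 0.05 by limma-voom, the black line is the median of each list and the grey band the quartiles of all tested genes. Medians run from -0.05 for the paralogues to -0.58 for spindle positioning, and no red point lies above 0.

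Among gene ontology annotations in the deposited table, the term cell cortex is listed for all 10 polarity genes and for 87 tested genes (0.631%). Establishment or maintenance of cell polarity is listed for 6 of the 10 and P granule for 4, par-1, par-2, par-3 and par-6. Over the 6 libraries the levels most like those of par-6, the member with the smallest p, were those of qars-1, mau-2 and W03A5.6, with Pearson's r of 0.998, 0.987 and 0.986 on log2(CPM + 1) among 9095 genes with a mean of at least 50 reads. These correlations are a description over 6 libraries that differ in genotype and depth. Both genotypes enter them together, and the 3 genes were picked as the highest of 9095 on these same 6 libraries. Their log2 fold changes were -0.33 for qars-1, -0.73 for mau-2 and -0.41 for W03A5.6, beside -0.74 for par-6.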

How the data were processed

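Read counts per gene are those the authors deposited, with no value where the table shows a question mark. The submitters' processing notes list TopHat2 2.1.1, cutadapt 2.10, DESeq2 1.22.2 (by the authors) and HTSeq 0.12.4, with build WBcel235; neither strandedness nor the handling of shared reads is given there. Rows with question marks in place of counts were left out, and the remaining counts were whole numbers. They were tested with limma-voom (limma 3.58.1, R 4.3.3), by choice, in place of a negative binomial model. A gene was tested if 3 libraries reached the CPM equal to 10 reads in a library of median size and all libraries together held 15 reads; 13778 genes passed. Libraries were scaled by the trimmed mean of M values, with trims of 30% and 5%. Per-length levels use the union of exons of Ensembl release 115. Of 91 genes compared, 20 had identical chromosome, start and end there and in the deposited table. The lengths may thus differ from those of the annotation used for counting, which limits the per-length levels and their order. The fit was tested on simulated data. Pairs of libraries within a group differed beyond counting noise (chi-square over its degrees of freedom 5.30 to 21.1), so none was treated as a repeat deposit. Totals of 3736372 to 12790323 reads put 3 reads at 0.771 to 0.228 CPM. A list of the plan is not reported here. Members, lists and tests were chosen with earlier results of these data known. Named are all members, each called gene of the lists and each list's gene with the smallest p. A few further genes of the lists (the other actin genes, mlc-4, air-1, mex-3, pie-1, gpr-2, dlg-1, ajm-1, let-413, nmy-1, vab-9) were named after their values were seen. So were the markers syp-1, end-1, end-3, med-1, tbx-37 and tbx-38. Alternatives were other scalings and filters, a replicate block, limma-trend on log2(CPM + 1), each library left out with the tested genes and scaling kept, and the authors' deposited comparison.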

Additional observations from a re-analysis of the deposited data

How the results depend on the processing

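Of the polarity genes 3 were called, and 3 with median-of-ratios scaling or a mean count of at least 10, 2 by limma-trend and 2 in the authors' deposited table. The number was 0 with upper-quartile scaling, 1 without the low-count filter and 0 to 2 with 1 library left out. par-6 and par-2 missed the threshold narrowly with upper-quartile scaling (limma-voom adjusted p = 0.051 and 0.064). The calls of other polarity genes numbered 13 with upper-quartile scaling and 8 to 24 with 1 library left out, and those over all genes 934 to 2843. Upper-quartile scaling put par-3 at 0.03; with 1 library left out par-3 ranged from -0.26 to 0.14 and par-1 from -0.32 to 0.01. The other 7 tested members stayed below 0 in all 13 alternatives. The difference in transcript balance between posterior and anterior genes moved to 0.04 without division by length. Same-numbered libraries did not deviate together (r = 0.097, -0.111 and -0.409 for numbers 1 to 3). Of the linc-4 libraries 0 of 3 correlated best with their own number, and the largest r was 0.486, for linc-4 3 with wild type 2. The wild type titles also carry a second number, not always the same as the one used here. With 3 libraries in a group, these values do not show whether libraries shared a culture or a day. With the replicate block 1714 genes and 1 member, par-6 (adjusted p = 0.037), were called. The cause of these changes was not tested. Depth limits par-4, with 2 to 11 reads in a library.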
